A study of Mus musculus with 12 samples.

Results

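Lysosomes are the acidic compartments in which a cell breaks down proteins, sugars and lipids. The genes described here are 50 mouse genes for lysosomal hydrolases, for proteins of the lysosomal membrane and for subunits of the vacuolar ATPase (V-ATPase), the proton pump that acidifies the compartment. They were followed through 4 groups of fibroblast cultures on expression arrays. The genes were chosen by their symbols, with earlier results of these arrays known. Each gene is represented by the probe set with the highest mean log2 signal over all 12 arrays, so this mean chose the probe set and is not a finding. Of the 50 genes, 47 were measured, out of 12393 genes in all, and Cd63, Arsb and Atp6v0c were not analysed here.

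Mouse embryonic fibroblasts (MEFs) labelled C57BL/6 carried a lentivirus for M2rtTA, the transactivator through which doxycycline turns on the delivered factors. The negative control carried M2rtTA alone. TF group 1 carried in addition the 3 factors GATA4, TBX5 and MEF2C, TF group 2 carried 5 factors, these and Mesp1 and SMARCD3, and TF group 3 carried 7, with MYOCD and SRF as well. Every group, the control included, was kept with doxycycline for 7 days and was measured on 3 arrays that the labels call biological replicates. By the methods of the study the medium of all groups also held valproic acid and extra serum, the delivered cDNAs were human except for mouse Mesp1, and RNA came from the whole unsorted culture. The control received no virus in place of the factors, so the factors and the number of viruses cannot be told apart. The study asked how added factors change the response of fibroblasts to the 3 factors of TF group 1.

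In the background, soluble lysosomal enzymes are made in the endoplasmic reticulum, tagged with mannose 6-phosphate in the Golgi and carried to the lysosome by sorting receptors. The V-ATPase has a cytosolic V1 sector, which splits ATP, and a V0 sector in the membrane, which moves protons. Many genes of this compartment carry the CLEAR motif, an extended E-box bound by TFEB and the related factors TFE3 and MITF, which the kinase complex mTORC1 restrains at the lysosomal surface. Loss of single members causes lysosomal storage diseases, among them the heart and muscle disease caused by loss of Gaa.

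All 12 arrays of the series had the same 2%-trimmed mean signal of 500.2, and their medians ranged from 131.5 to 149.7. Replicates of a group correlated with r between 0.96 and 0.966 over all probe sets, and TF arrays with control arrays between 0.922 and 0.933. The 24 probe sets for poly-A RNA spiked in before amplification were brighter on every TF array (a mean log2 signal of 8.03 to 8.28) than on any control array (6.99 to 7.79), a difference of 0.81 (exact permutation test, two-sided p = 0.00455, the smallest that 220 splits allow). The 3 probe sets for 18S rRNA differed in the same direction by 1.19, with 11.03 to 11.32 in the control and 12.10 to 12.58 in the TF groups (exact permutation test, two-sided p = 0.00455). Of 16 fibroblast markers, 0 lay below a log2 signal of 5 in every group, beside 3 of 12 endothelial and 8 of 27 macrophage markers. This count does not test the MEF label, since markers of other cell types also passed it.

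The promoter sequences of the members show the motif that this pathway is known for. Since the motif is known from genes of this compartment, its share among the members is a description and no test. RefSeq promoters on GRCm38.p6, from 250 bases before to 50 bases after each start site, were found for 38 of the 47 genes. The E-box CACGTG, which reads the same on both strands, was present in the window of 15 of the 38 genes (39.5%), against 10.8% of the 9888 genes on the array with a promoter and 7.15% of all 32851 promoters. The longer CLEAR core TCACGTGA, which contains the E-box, was present in 7 of 38 (18.4%), against 1.76% of genes on the array and 0.974% of all promoters. Of the 23 E-boxes in the 15 genes, 21 began before the start site and 15 of them within 100 bases of it. The E-box of Atp6v0d1, counted among them, runs across the start site. The median GC content was 56.3% for the promoters of members, 59.0% for genes on the array and 52.7% for all promoters. The stretches below are those with a whole CLEAR core before the start site, and that of Lamp1, which has the most E-boxes there. They belong to membrane proteins, proteases, a glycosidase and a V1 subunit. They read 5′ to 3′ on the strand of the gene and end before its start site, and capitals mark the E-box or the CLEAR core.
Lamp1 (chr8:13159080-13159160, plus strand): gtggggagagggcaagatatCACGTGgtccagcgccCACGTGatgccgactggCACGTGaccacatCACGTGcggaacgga
Mcoln1 (chr8:3500428-3500500, plus strand): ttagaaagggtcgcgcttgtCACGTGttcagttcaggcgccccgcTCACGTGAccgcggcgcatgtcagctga
Ctsa (chr2:164833740-164833772, plus strand): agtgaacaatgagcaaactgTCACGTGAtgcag
Ctsd (chr7:142387899-142388077, minus strand): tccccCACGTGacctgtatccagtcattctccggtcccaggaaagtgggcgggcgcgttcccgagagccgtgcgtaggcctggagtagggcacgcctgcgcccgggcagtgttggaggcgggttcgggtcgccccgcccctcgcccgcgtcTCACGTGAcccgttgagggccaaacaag
Gla (chrX:134601173-134601253, minus strand): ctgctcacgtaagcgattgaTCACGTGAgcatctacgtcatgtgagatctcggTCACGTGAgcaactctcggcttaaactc
Atp6v1a (chr16:44139364-44139411, minus strand): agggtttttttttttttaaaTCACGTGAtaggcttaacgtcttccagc
In these stretches Lamp1 held 4 E-boxes within 81 bases, Gla 2 CLEAR cores and Ctsd and Mcoln1 1 CLEAR core and 1 further E-box each. The CLEAR cores of Atp6v0d1 and Atp6v0e, and a further one of Ctsa, did not lie wholly before the start site and are not shown. A match of letters is a description and not a binding site. Members with an E-box had median log2 changes of 0.91, 1.03 and 1.00 in TF groups 1, 2 and 3 against the negative control, and members with a promoter but no E-box 1.05, 1.15 and 0.99. Split by the CLEAR core, the medians were 0.91, 1.23 and 1.11 with it and 1.00, 1.02 and 0.99 without it, so in TF group 2 the order was opposite for the E-box and the CLEAR core. The 9 members without a promoter entry were Npc1, Ctsb, Ctsh, Galns, Asah1, Atp6v1b2, Atp6v1c1, Atp6v1g1 and Atp6v1h.

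Signals of lysosomal and V-ATPase genes were higher in every TF group than in the negative control. A gene was called higher or lower at an adjusted p under 0.05 (limma, Benjamini-Hochberg over all probe sets) with a fold change over 1.5. Of the 47 members, 45 were called higher in TF group 1, 44 with the factors of TF group 2 and 40 with those of TF group 3. Over all 12393 genes the share called higher was 15.1%, 15.3% and 14.7%, and the share called lower 8.93%, 10.1% and 9.84%. Of the members, 0 were called lower in any TF group by limma. At an unadjusted p under 0.05, 2608, 2741 and 2718 of all 12393 genes were lower, and 0 of the members. Since these genes were listed with results of the same comparisons known, the counts describe them and are no test of the list. The 3 comparisons also share the 3 control arrays, so they are not independent of each other. In bulk RNA, a change in the number of cells of a kind and a change in RNA per cell cannot be told apart.

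**Figure D1:**
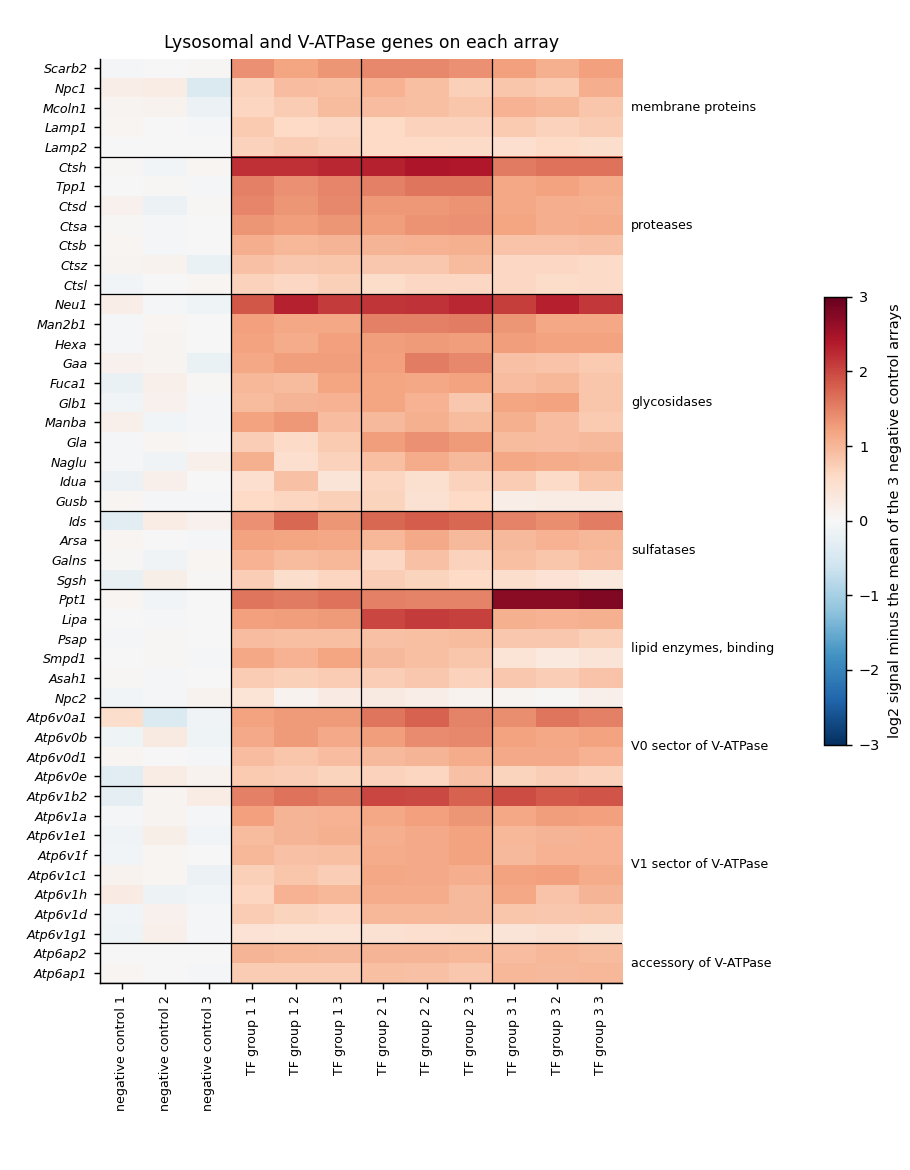
Log2 signal of each of the 47 genes (rows, by role) on each of the 12 arrays (columns) minus the mean of its 3 negative control arrays. The 9 TF arrays are red, that is higher than the control mean, for nearly every gene, while the control arrays stay near 0.

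The median log2 change of the 47 members was 1.00 in TF group 1, 1.04 in TF group 2 and 0.99 in TF group 3, beside 0.07, 0.06 and 0.05 for all genes. All 47 members had a change above 0 in each comparison, with ranges of 0.27 to 2.21, 0.19 to 2.38 and 0.09 to 2.73. By array, the median log2 signal of the members lay between 10.06 and 10.33 in the control and between 11.11 and 11.37 in the TF groups, without overlap. For single genes, all 3 arrays of the TF group lay above all 3 control arrays for 47, 46 and 46 members in TF groups 1, 2 and 3, against 30.4%, 29.9% and 29.7% of all genes. The exception in TF groups 2 and 3 was Npc2. In all 3 TF groups together 40 of 47 members (85.1%) were called higher, against 9.64% of all genes.

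The members had a mean log2 signal of at least 7. Of all genes between 7 and 9 in mean log2 signal, 21.2%, 21.9% and 20.3% were called higher in TF groups 1, 2 and 3, and of the 12 members there 12, 12 and 11. Between 9 and 11 the shares were 16.8%, 17.1% and 16.4%, and of 12 members 12, 11 and 10 were called higher. Above 11 they were 12.3%, 12.1% and 11.9%, and of 23 members 21, 21 and 19 were called higher.

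**Figure D2:**
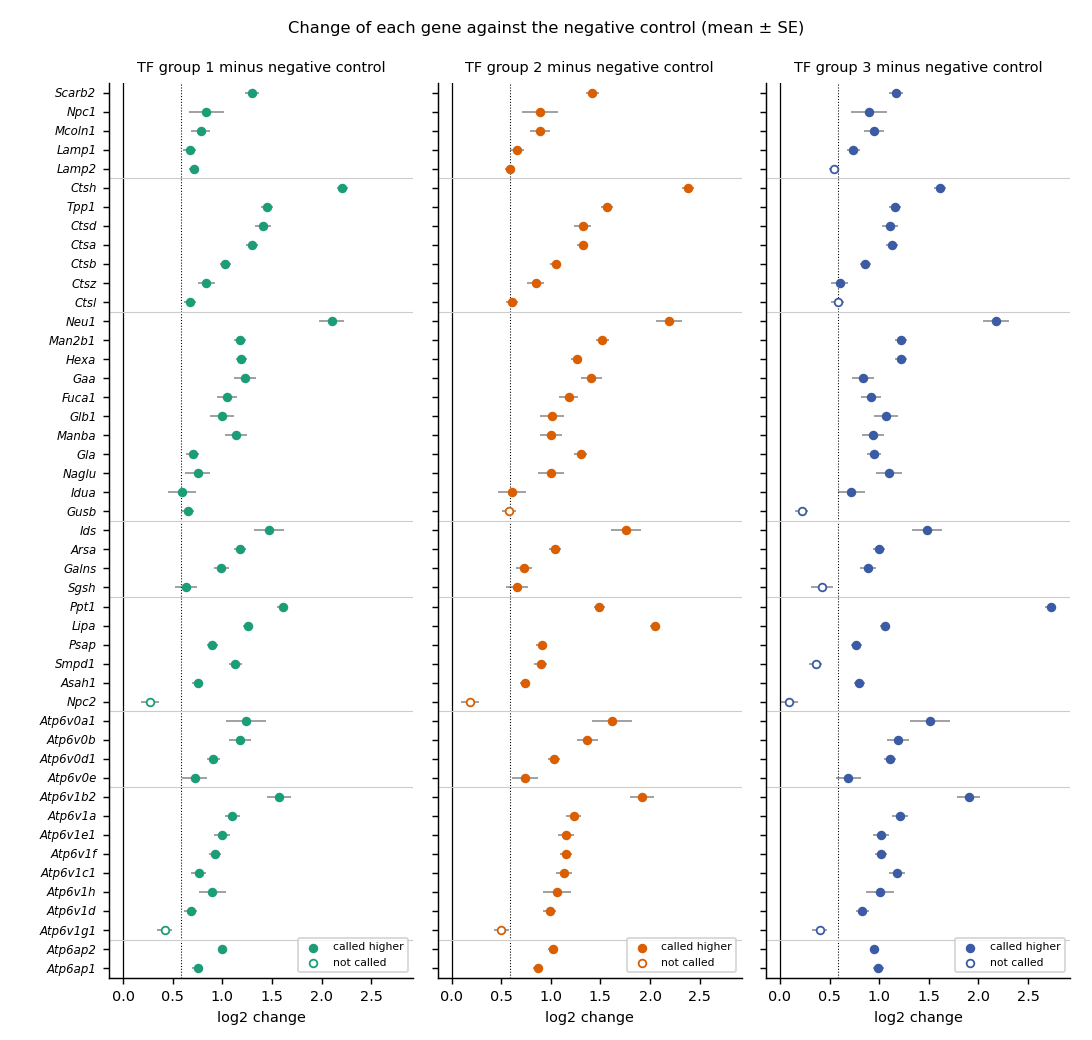
Log2 change of each of the 47 genes against the negative control in the 3 TF groups (points, estimates with their SE, n = 3 arrays per group), filled where called higher and open where not called. The dotted line marks the fold of 1.5, and every point lies right of 0.

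Of the membrane proteins, 5, 5 and 4 of 5 were called higher in TF groups 1, 2 and 3, with median log2 changes of 0.78, 0.89 and 0.90. Scarb2, the receptor that brings the enzyme glucocerebrosidase to the lysosome, had log2 signals of 9.89, 9.92 and 9.95 on the control arrays, 11.28, 11.11 and 11.25 in TF group 1, 11.36, 11.36 and 11.30 in TF group 2 and, in TF group 3, 11.14, 10.98 and 11.14. Its changes of 1.30, 1.42 and 1.17 (SE 0.068) corresponded to folds of 2.46, 2.68 and 2.25. Npc1, which exports cholesterol from the lysosome, had log2 signals of 7.09, 7.12 and 6.45 on the control arrays, 7.58, 7.81 and 7.78 in TF group 1, 7.93, 7.80 and 7.61 in TF group 2 and, in TF group 3, 7.71, 7.67 and 7.97. The control arrays of Npc1 spread widely, and its changes were 0.84, 0.89 and 0.90 (SE 0.18). Mcoln1, a calcium-conducting channel of the lysosomal membrane, had log2 signals of 7.69, 7.71 and 7.42 on the control arrays, 8.25, 8.37 and 8.55 in TF group 1, 8.54, 8.51 and 8.45 in TF group 2 and, in TF group 3, 8.64, 8.60 and 8.43. In each of these genes every TF array lay above every control array. Lamp1 and Lamp2, the most familiar proteins of the membrane coat, had changes of 0.67, 0.66 and 0.74 and of 0.71, 0.59 and 0.54, and Lamp2 in TF group 3 lay just under the fold of 1.5. Other probe sets of Lamp2 had 1.22, 1.14 and 0.80 and 1.19, 1.05 and 0.87, called higher in each TF group. A further probe set of Lamp2 had 0.51, 0.38 and 0.35 and was not called.

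Of the proteases, 7, 7 and 6 of 7 were called higher, with median log2 changes of 1.30, 1.32 and 1.11. Ctsh, an aminopeptidase of the cathepsin family, had log2 signals of 7.30, 7.19 and 7.32 on the control arrays, 9.45, 9.45 and 9.53 in TF group 1, 9.59, 9.69 and 9.67 in TF group 2 and, in TF group 3, 8.83, 8.90 and 8.90. Its signal was 4.63, 5.21 and 3.05 times that of the control in the 3 TF groups (log2 changes of 2.21, 2.38 and 1.61, SE 0.059). Tpp1, which removes tripeptides from protein ends, had log2 signals of 10.84, 10.85 and 10.78 on the control arrays, 12.33, 12.20 and 12.29 in TF group 1, 12.33, 12.44 and 12.43 in TF group 2 and, in TF group 3, 11.98, 12.03 and 11.94, with changes of 1.45, 1.57 and 1.16 (SE 0.059). Ctsd, the main aspartic protease of the lysosome, had log2 signals of 11.08, 10.77 and 10.98 on the control arrays, 12.40, 12.27 and 12.39 in TF group 1, 12.24, 12.25 and 12.29 in TF group 2 and, in TF group 3, 12.11, 12.03 and 12.02, with changes of 1.41, 1.32 and 1.11 (SE 0.082). For all 3 genes the TF arrays stood clear of the control arrays, and TF group 3 had the smallest change. The protective protein Ctsa and the cysteine proteases Ctsb and Ctsz were called higher in all 3 TF groups, between 0.60 (Ctsz in TF group 3) and 1.32 (Ctsa in TF group 2). Ctsl, also a cysteine protease, had changes of 0.67, 0.61 and 0.58 and was not called in TF group 3.

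Of the glycosidases, which remove sugars from glycoproteins, glycolipids and glycogen, 11, 10 and 10 of 11 were called higher, with medians of 1.05, 1.18 and 0.95. Neu1, the lysosomal sialidase, had log2 signals of 7.02, 6.76 and 6.70 on the control arrays, 8.70, 9.14 and 8.93 in TF group 1, 8.96, 8.99 and 9.09 in TF group 2 and, in TF group 3, 8.90, 9.16 and 8.95. This was 4.28, 4.56 and 4.53 times the control (log2 changes of 2.10, 2.19 and 2.18, SE 0.13), with little difference between the TF groups. Man2b1, an alpha-mannosidase, had log2 signals of 9.51, 9.62 and 9.58 on the control arrays, 10.79, 10.73 and 10.73 in TF group 1, 11.09, 11.08 and 11.10 in TF group 2 and, in TF group 3, 10.89, 10.72 and 10.74, with changes of 1.18, 1.52 and 1.22 (SE 0.062). Hexa, a subunit of the beta-hexosaminidase whose loss causes Tay-Sachs disease, had log2 signals of 10.80, 10.93 and 10.83 on the control arrays, 12.07, 11.97 and 12.09 in TF group 1, 12.10, 12.14 and 12.10 in TF group 2 and, in TF group 3, 12.11, 12.05 and 12.05. Its changes of 1.19, 1.26 and 1.22 (SE 0.057) were close to each other, and no TF array came near the control. Gaa, which degrades glycogen, had changes of 1.23, 1.41 and 0.84 (SE 0.11). Fuca1, Glb1, Manba, Naglu and Idua, which act on fucose, galactose, mannose and the sugars of glycosaminoglycans, were called higher in all 3 TF groups, from 0.59 (Idua in TF group 1) to 1.18 (Fuca1 in TF group 2). Gusb, the beta-glucuronidase, had changes of 0.65, 0.58 and 0.22 and was called higher in TF group 1, with TF groups 2 and 3 under the fold threshold.

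Of the sulfatases and related enzymes of glycosaminoglycan and sulfatide breakdown, 4, 4 and 3 of 4 were called higher, with medians of 1.09, 0.89 and 0.95. Ids, which removes sulfate from heparan and dermatan sulfate, had log2 signals of 6.41, 6.97 and 6.89 on the control arrays, 8.13, 8.49 and 8.07 in TF group 1, 8.49, 8.57 and 8.48 in TF group 2 and, in TF group 3, 8.24, 8.16 and 8.30, with changes of 1.47, 1.76 and 1.48 (SE 0.15). These values rest on 1 probe set, since none of the 4 other probe sets of Ids was called in any comparison with the control. Arsa, the arylsulfatase lost in metachromatic leukodystrophy, had log2 signals of 8.99, 8.91 and 8.90 on the control arrays, 10.14, 10.12 and 10.09 in TF group 1, 9.94, 10.08 and 9.91 in TF group 2 and, in TF group 3, 9.91, 9.97 and 9.92, with changes of 1.18, 1.04 and 1.00 (SE 0.06). Galns, which acts on keratan sulfate, had log2 signals of 7.63, 7.49 and 7.65 on the control arrays, 8.63, 8.54 and 8.58 in TF group 1, 8.21, 8.47 and 8.29 in TF group 2 and, in TF group 3, 8.50, 8.42 and 8.52, with changes of 0.99, 0.73 and 0.89 (SE 0.079). For each of them every TF array lay above every control array, while the TF groups overlapped in part. Sgsh, a sulfamidase, had changes of 0.63, 0.66 and 0.42 and was not called in TF group 3.

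Of the lipid enzymes and lipid-binding proteins, 5, 5 and 4 of 6 were called higher, with medians of 1.01, 0.91 and 0.79. The changes of this class spread more widely than those of the other classes in TF groups 2 and 3 (SD 0.64 and 0.93), while in TF group 1 the proteases did (SD 0.51 against 0.46). Ppt1, which removes palmitate from proteins, had log2 signals of 8.77, 8.64 and 8.73 on the control arrays, 10.33, 10.28 and 10.35 in TF group 1, 10.22, 10.21 and 10.19 in TF group 2 and, in TF group 3, 11.41, 11.41 and 11.49. Its signal was 3.05, 2.81 and 6.62 times that of the control (log2 changes of 1.61, 1.49 and 2.73, SE 0.055). Lipa, the acid lipase that releases cholesterol and fatty acids from lipoproteins, had log2 signals of 8.86, 8.80 and 8.86 on the control arrays, 10.08, 10.10 and 10.12 in TF group 1, 10.85, 10.94 and 10.89 in TF group 2 and, in TF group 3, 9.90, 9.88 and 9.90, with changes of 1.26, 2.05 and 1.06 (SE 0.049). Psap, the precursor of the saposins that present lipids to their enzymes, had log2 signals of 11.27, 11.33 and 11.30 on the control arrays, 12.22, 12.20 and 12.20 in TF group 1, 12.17, 12.20 and 12.26 in TF group 2 and, in TF group 3, 12.10, 12.12 and 12.01. Its changes of 0.90, 0.91 and 0.77 (SE 0.054) were among the more even ones. Smpd1, the acid sphingomyelinase, had log2 signals of 9.20, 9.24 and 9.14 on the control arrays, 10.36, 10.23 and 10.37 in TF group 1, 10.17, 10.09 and 10.03 in TF group 2 and, in TF group 3, 9.61, 9.49 and 9.58. It was called higher in TF groups 1 and 2 (1.13 and 0.90), while in TF group 3 its change of 0.36 (adjusted p = 0.00155) was under the fold threshold. Asah1, the acid ceramidase, had changes of 0.75, 0.74 and 0.80.

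Npc2, the soluble partner of Npc1 that carries cholesterol, had the smallest changes of all 47 members. Its log2 signals were 12.42, 12.47 and 12.62 on the control arrays, 12.92, 12.62 and 12.76 in TF group 1, 12.77, 12.71 and 12.60 in TF group 2 and, in TF group 3, 12.59, 12.53 and 12.65. With changes of 0.27, 0.19 and 0.09 (SE 0.091) it was not called in any TF group, and its arrays in TF groups 2 and 3 overlapped the control. Its other probe set, with 0.36 and 0.33 in TF groups 1 and 2, was not called in any TF group either.

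Of the 14 measured V-ATPase members, 13 were called higher in each TF group, with median log2 changes of 0.92, 1.10 and 1.02. In the V0 sector all 4 measured subunits were called in each group, with medians of 1.04, 1.20 and 1.15. Atp6v0a1, an isoform of the large membrane subunit, had log2 signals of 7.81, 6.85 and 7.16 on the control arrays, 8.47, 8.54 and 8.54 in TF group 1, 8.87, 9.04 and 8.77 in TF group 2 and, in TF group 3, 8.67, 8.89 and 8.78. Its control arrays spread widely (SD 0.49), and its changes of 1.24, 1.62 and 1.51 had the largest SE among the members (0.2). Atp6v0b, a subunit of the proton-carrying ring, had log2 signals of 10.06, 10.47 and 10.07 on the control arrays, 11.33, 11.48 and 11.33 in TF group 1, 11.46, 11.62 and 11.65 in TF group 2 and, in TF group 3, 11.40, 11.36 and 11.41, with changes of 1.18, 1.37 and 1.19 (SE 0.11). Atp6v0d1, which joins the ring to the central stalk, had log2 signals of 11.18, 11.13 and 11.07 on the control arrays, 12.06, 11.97 and 12.06 in TF group 1, 12.09, 12.14 and 12.25 in TF group 2 and, in TF group 3, 12.27, 12.26 and 12.18, with changes of 0.91, 1.03 and 1.11 (SE 0.063). No TF array of these subunits reached down to a control array. Atp6v0e had changes of 0.72, 0.74 and 0.69.

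In the V1 sector, 7 of 8 subunits were called higher in each TF group, with medians of 0.91, 1.14 and 1.02. Atp6v1b2, the widely expressed isoform of the nucleotide-binding B subunit, had log2 signals of 7.94, 8.30 and 8.44 on the control arrays, 9.75, 9.85 and 9.78 in TF group 1, 10.24, 10.20 and 10.00 in TF group 2 and, in TF group 3, 10.18, 10.07 and 10.12. This was 2.97, 3.78 and 3.72 times the control (log2 changes of 1.57, 1.92 and 1.90, SE 0.12). Atp6v1a, the subunit that splits ATP, had log2 signals of 10.30, 10.44 and 10.30 on the control arrays, 11.57, 11.37 and 11.40 in TF group 1, 11.50, 11.57 and 11.67 in TF group 2 and, in TF group 3, 11.51, 11.59 and 11.57, with changes of 1.10, 1.23 and 1.21 (SE 0.077). Atp6v1e1, part of the outer stalks, had log2 signals of 10.68, 10.98 and 10.72 on the control arrays, 11.74, 11.81 and 11.85 in TF group 1, 11.88, 11.94 and 12.01 in TF group 2 and, in TF group 3, 11.79, 11.81 and 11.84, with changes of 1.00, 1.15 and 1.02 (SE 0.082). For these 3 subunits the TF arrays lay above the control arrays without overlap. Atp6v1c1, Atp6v1d, Atp6v1f and Atp6v1h were called in all 3 TF groups, from 0.68 (Atp6v1d in TF group 1) to 1.18 (Atp6v1c1 in TF group 3). Atp6v1g1, another stalk subunit, had changes of 0.42, 0.50 and 0.40, all under the fold of 1.5 although its TF arrays did not overlap the control.

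Both accessory proteins of the pump were called higher in each TF group. Atp6ap1 had log2 signals of 10.83, 10.76 and 10.69 on the control arrays, 11.51, 11.53 and 11.51 in TF group 1, 11.66, 11.65 and 11.57 in TF group 2 and, in TF group 3, 11.76, 11.74 and 11.75, with changes of 0.75, 0.87 and 0.99 (SE 0.054). Atp6ap2, also known as the prorenin receptor, had log2 signals of 11.39, 11.42 and 11.43 on the control arrays, 12.43, 12.42 and 12.39 in TF group 1, 12.44, 12.44 and 12.41 in TF group 2 and, in TF group 3, 12.33, 12.40 and 12.37, with changes of 1.00, 1.02 and 0.95 (SE 0.047). The replicates of both genes lay close together and far from the control.

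**Figure D3:**
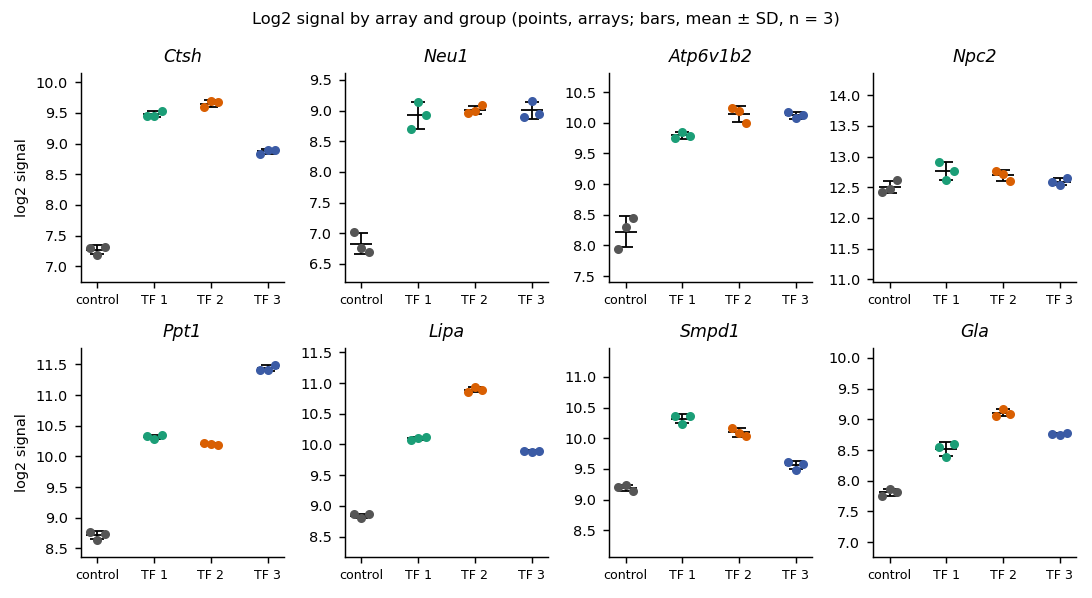
Log2 signal of 8 of the genes in the negative control and the 3 TF groups (points, arrays; bars, mean ± SD, n = 3). The panels span the same number of log2 units from different starting values. Npc2 is the gene whose arrays in TF groups 2 and 3 overlap the control arrays.

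By the probe sets that stand for their genes, 5 members were called between TF groups. Between TF groups 2 and 1, limma called 2 members higher and 0 lower, against 2.08% and 1.78% of all genes. Between TF groups 3 and 2 it called 1 higher and 2 lower, against 2.32% and 1.7%, and between TF groups 3 and 1 also 1 higher and 2 lower, against 3.26% and 3.05%. At an unadjusted p under 0.05, 8 members were higher and 4 lower between TF groups 2 and 1, against 1200 and 1486 of all 12393 genes. Between TF groups 3 and 2, 1 member was higher and 17 lower at that cut, against 1414 and 1524 of all genes. Between TF groups 3 and 1, 8 members were higher and 13 lower, against 1635 and 1983 of all genes. Among these, 6 of the 7 proteases were lower between TF groups 3 and 2 and between TF groups 3 and 1. Ppt1 in TF group 3 exceeded TF group 2 by 1.24 log2 units (2.35-fold, adjusted p = 5.97e-06) and TF group 1 by 1.12 (2.17-fold, adjusted p = 4.54e-06). Its second probe set gave 1.32 and 1.45, called as well. Lipa in TF group 2 exceeded TF group 1 by 0.79 (adjusted p = 2.7e-05), and from TF group 2 to TF group 3 it had a change of -1.0 (adjusted p = 7.22e-06). One of its 2 other probe sets was called in both comparisons (0.63 and -0.88) and the other, with a wider spread, only between TF groups 3 and 2 (-1.84). Ctsh in TF group 3 had a change of -0.77 relative to TF group 2 (adjusted p = 7.67e-05) and of -0.60 relative to TF group 1 (adjusted p = 0.000211).

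Smpd1 in TF group 3 had a change of -0.76 relative to TF group 1 (adjusted p = 0.000101) and of -0.54 relative to TF group 2, under the fold threshold. Gla, the alpha-galactosidase lost in Fabry disease, had log2 signals of 7.75, 7.86 and 7.82 on the control arrays, 8.55, 8.38 and 8.60 in TF group 1, 9.06, 9.17 and 9.09 in TF group 2 and, in TF group 3, 8.76, 8.74 and 8.78, with changes of 0.70, 1.30 and 0.95 against the control (SE 0.069). Its change of 0.60 between TF groups 2 and 1 (1.51-fold, adjusted p = 0.000933) lay just over the fold threshold. Without TF group 1 replicate 2 it was 0.53 and without TF group 2 replicate 2 it was 0.56, and it was then not called. Its second probe set had a change of 0.19 (SE 0.31) and was not called. The change of Ctsh between TF groups 3 and 1 was -0.58, and not called, without TF group 1 replicate 3 or without TF group 3 replicate 1. Other probe sets of Tpp1 (-0.59, adjusted p = 0.000462) and Atp6v0b (-0.62, adjusted p = 0.00109) were called lower between TF groups 3 and 2, where the probe sets that stand for these genes were not called. Over all 47 members the median changes between TF groups were small, at 0.08, -0.10 and 0.00 for TF group 2 against 1, 3 against 2 and 3 against 1.

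Probe sets that do not stand for their gene were not used by the rule and measure the same members again on the same arrays. There were 48 of them, for 28 members. In TF groups 1, 2 and 3, 29, 31 and 28 were called higher and 0 lower, against 12.9%, 12.9% and 13.3% called higher of all 7987 such probe sets. Their median log2 changes were 0.89, 1.12 and 0.86. Of the 32 with a mean log2 signal of at least 7, 24, 28 and 25 were called higher, and of the 16 dimmer ones 5, 3 and 3. The second probe set of Tpp1 had changes of 2.02, 2.41 and 1.82, larger than those of the first, while that of Gusb had -0.02, -0.06 and -0.24 and was not called.

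Other genes of the compartment, listed by name with earlier results known, are given beside the 15.1%, 15.3% and 14.7% of all genes called higher. The shares called lower were 8.93%, 10.1% and 9.84%. Of 21 other lysosomal enzymes and their helpers, 10, 9 and 8 were called higher and 1 lower in each TF group, with medians of 0.48, 0.47 and 0.44. Ctsf, a cysteine protease, had changes of 3.24, 4.06 and 3.46, and Dpp7, a dipeptidase, 2.09, 2.07 and 2.02. Gm2a, the activator of hexosaminidase, had 1.62, 1.61 and 1.56, and Man2b2, a mannosidase, 1.5, 1.52 and 1.17. The gene called lower was Ctss, a cathepsin of immune cells, whose mean log2 signal was 5.84 in the control and between 2.03 and 3.39 in the TF groups. Of 17 other membrane proteins, 6, 3 and 4 were called higher and 0 lower, with medians of 0.11, 0.24 and 0.35. Laptm4b, Tpcn1, a channel of endolysosomes, and Ctns, the cystine exporter, were called in all 3 TF groups, and Abcb9 in TF group 1 (1.23, with 0.59 and 0.35 in the other two).

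Of 12 other V-ATPase subunits and assembly factors, 1, 4 and 1 were called higher and 0 lower, with medians of 0.03, 0.33 and 0.15. In TF groups 1 and 3 this lay below the share of all genes called higher, 15.1% and 14.7%, and in TF group 2 above it, 15.3%. Atp6v0e2, an isoform of the small membrane subunit, was called in each TF group, with 1.43, 1.64 and 1.82. Atp6v0a2, Dmxl1 and Tmem199 were called in TF group 2 (0.63, 0.66 and 0.59) and not in the other two. Between TF groups, limma called 0 of the 12 genes. At an unadjusted p under 0.05 it found 1 higher from TF group 1 to 2, against 1200 of all 12393 genes. From TF group 2 to 3 it found 1 higher and 1 lower, against 1414 and 1524 of all genes. From TF group 1 to 3 it found 2 higher, against 1635 of all genes. The tissue-restricted isoforms Atp6v0a4, Atp6v1b1 and Atp6v1c2 and the isoform Tcirg1 of osteoclasts were not called.

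The sorting machinery changed in some of its parts. Over all genes, 15.1%, 15.3% and 14.7% were called higher in TF groups 1, 2 and 3 and 8.93%, 10.1% and 9.84% lower. Of 23 sorting genes, 8, 9 and 8 were called higher and 0, 0 and 1 lower, with medians of 0.34, 0.36 and 0.25. The receptors Sort1 (1.87, 2.35 and 2.21) and Igf2r, the large mannose 6-phosphate receptor (1.56, 1.34 and 1.33), were called higher in all 3 TF groups, as were Vps41 and Ap1b1. M6pr, the small mannose 6-phosphate receptor, had -0.16, -0.04 and 0.17 and was not called, and Ap1s1 was called lower in TF group 3 (-0.63). Of 27 autophagy genes, 13, 13 and 15 were called higher and 0 lower, with medians of 0.43, 0.51 and 0.61. Map1lc3b, which coats autophagosomes, had 1.09, 0.99 and 1.05, and the cargo receptor Sqstm1 1.06, 1.00 and 1.02. Atg12, Atg14, Nbr1 and Gabarapl2 were called in all 3 TF groups, between 0.97 and 1.38.

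Of 20 genes for the MiT/TFE factors and for mTORC1 regulation at the lysosome, 5, 5 and 4 were called higher and 0 lower, with medians of 0.38, 0.30 and 0.16. The share of all genes called higher was 15.1%, 15.3% and 14.7%. Higher at an unadjusted p under 0.05 by limma were 14, 13 and 10 of the 20 genes, against 3578, 3544 and 3506 of all 12393 genes. Tfeb itself had changes of 0.27, 0.05 and -0.08 and Mitf of 0.50, -0.01 and -0.20, and neither was called against the control. In TF group 1 the change of Mitf (limma, adjusted p = 0.00201) was under the fold threshold. Tfe3 was not among the 20 genes measured. Between TF groups 3 and 1, limma called Mitf (-0.70, adjusted p = 0.00123) and Tfec, a related factor (-0.76, adjusted p = 0.0337), lower. They were the 2 genes of this list called between TF groups, and 3.05% of all genes were called lower between TF groups 3 and 1. The mean log2 signal of Tfec was low, at 5.22 in TF group 1 and 4.46 in TF group 3. Rragd, a Rag GTPase, had 0.83, 0.99 and 0.89, Flcn, its partner in mTORC1 signalling, 0.78, 0.81 and 0.93, and Lamtor3 and Nprl3 lay between 0.62 and 0.79. The signal of Rragd was low, with a mean of 5.10 in the control, and its arrays in TF group 1 overlapped the control. At an unadjusted p under 0.05, 1 gene of this list was lower in each TF group, 1, 1 and 2 of the autophagy genes, 1, 0 and 1 of the other membrane proteins and 0 of the other V-ATPase genes. Of all 12393 genes, 2608, 2741 and 2718 were lower at that cut in TF groups 1, 2 and 3. Transcript levels do not measure the activity of these factors. As a set of ATPase genes of another organelle, 16 mitochondrial ATP synthase genes had 0 called by limma in any TF group and medians of 0.04, 0.07 and 0.08. At an unadjusted p under 0.05 by limma, 5, 6 and 5 of these 16 genes were higher, against 3578, 3544 and 3506 of all 12393 genes.

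**Figure D4:**
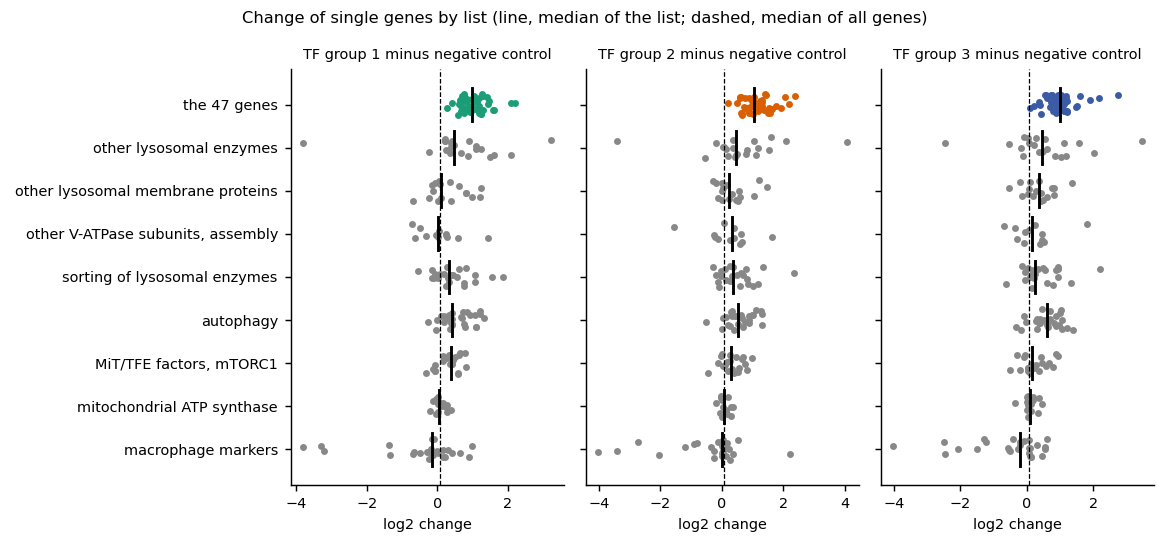
Log2 change of single genes (points) against the negative control in the 3 TF groups, for the 47 members and 8 other lists (solid line, median of the list; dashed line, median of all genes). The 47 members lie farthest to the right as a group, while the ATP synthase genes lie around 0.

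Macrophages are rich in lysosomes, so their markers are given beside these results. Over all genes, 15.1%, 15.3% and 14.7% were called higher and 8.93%, 10.1% and 9.84% lower. These shares also stand beside the fibroblast, endothelial and adipocyte lists. Of 27 macrophage markers, 1, 0 and 0 were called higher and 3 lower in each TF group, with medians of -0.14, 0.02 and -0.22. Their summed signal was 1328 to 1373 in the control, 1086 to 1130 in TF group 1, 1130 to 1214 in TF group 2 and 1037 to 1238 in TF group 3, so that no TF array exceeded a control array. The markers C1qa, Fcgr1, Mpeg1 and Marco lay below a log2 signal of 5 in every group, as did 8 of the 27 in all, and Csf1r, Adgre1 and Cd14 were not called. The marker called higher was Laptm5 in TF group 1 (0.99). Lyz1 (-3.29, -4.02 and -4.01) and Ctss were called lower in each TF group, Tyrobp in TF group 1 and Lyz2 in TF groups 2 and 3. Each of these lower markers fell below a log2 signal of 5 in at least 1 TF group. The list shares Ctss, Laptm5 and Cd68 with the lysosomal lists. Of the 16 fibroblast markers, 2, 1 and 0 were called higher and 2, 5 and 6 lower, with medians of 0.05, -0.12 and -0.41. Fap and S100a4 were called lower in each TF group, and Pdgfra and Prrx1 in TF groups 2 and 3. The 16 markers summed to 84962 to 88215 in the control, 98200 to 104153 in TF group 1, 78791 to 83661 in TF group 2 and 75776 to 79444 in TF group 3. Of 12 endothelial markers, 1, 0 and 1 were called higher and 0 lower. At an unadjusted p under 0.05 by limma, 1, 0 and 1 of them were lower, against 2608, 2741 and 2718 of all 12393 genes. Of 8 adipocyte markers, 1, 2 and 2 were called higher and 2, 2 and 3 lower, and their summed signal was 854 to 1014 in the control, 733 to 788 in TF group 1, 4151 to 4799 in TF group 2 and 5965 to 6282 in TF group 3. Car3, also a muscle gene, carried that rise.

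Proliferation genes moved with the same groups, and stress genes in part. All 14 mitosis genes were called lower in each TF group, with medians of -2.65, -3.14 and -2.72. Over all genes, 8.93%, 10.1% and 9.84% were called lower and 15.1%, 15.3% and 14.7% higher. Of 9 stress genes, 4, 3 and 4 were called higher and 0, 1 and 1 lower, with medians of 0.40, -0.02 and 0.35 and Ddit3 at 1.49, 1.39 and 1.15. Their part in the changes of the members was not tested.

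The direction of these changes holds for signals relative to the other genes of an array. Scaled to the poly-A spikes, the median change of all genes was -0.83, -0.68 and -0.74, and that of the members 0.10, 0.30 and 0.19. This scaling shifts all genes of an array alike, so it cannot change the distance between the members and the other genes. The change of 18, 10 and 12 members was below 0 on that scale, 9 of them in all 3 TF groups, against 88.3%, 83.7% and 85.8% of all genes. On that scale 4, 11 and 5 members were called higher and 1, 0 and 1 lower, the lower one being Npc2, against 2.74%, 4.14% and 3.53% of all genes called higher and 55.3%, 44.4% and 48.4% called lower. Ctsh, Neu1, Ppt1 and Atp6v1b2 were called higher in all 3 TF groups under both scales. With each array centred on its median, 37, 39 and 38 members were called higher, against 11.6%, 12.7% and 11.8% of all genes. Quantile normalization gave 43, 42 and 42 members, against 13.1%, 13.6% and 12.8% of all genes.

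**Figure D5:**
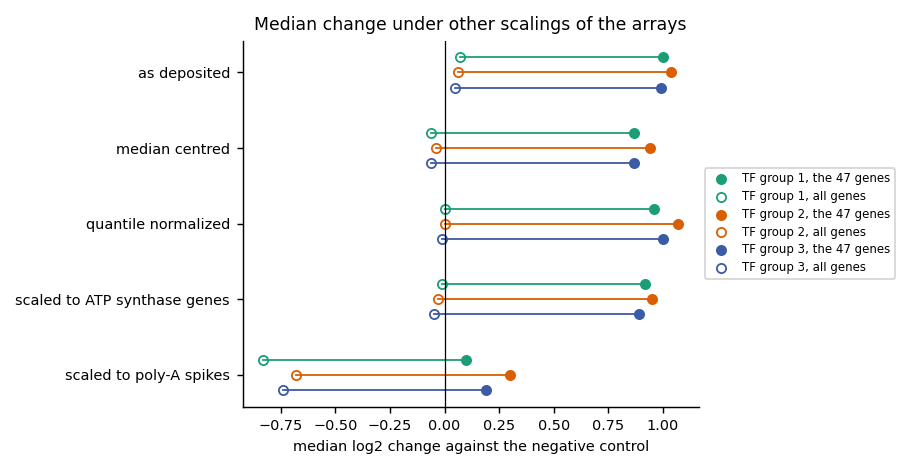
Median log2 change against the negative control for the 47 members (filled) and for all genes (open) in each TF group, under 5 scalings of the arrays. Under the poly-A spike scaling filled and open points move left together, as a shift of whole arrays requires.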

How the data were processed

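Total RNA of 12 MEF cultures was amplified, labelled and hybridized to GeneChip 430A 2.0 arrays by a core facility. The deposited intensity values are 1 linear signal per probe set. The labels name RMA and Partek, which give log2 values, whereas the authors deposited linear intensity values with a shared trimmed mean, so the summarization method is not known. The tests had been planned for log2 values, and the signals were taken to log2 in R 4.3.3.

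Of 22690 probe sets, 64 controls were left out of the tests, and 20380 carried 1 gene symbol, 691 several and 1555 none in the platform annotation. The brightest probe set by mean log2 signal stood for each of 12393 genes. The members and lists were chosen with earlier results of these data known. limma 3.58.1 fitted 1 mean per group over all 12 arrays (lmFit, contrasts.fit, eBayes), and p-values were adjusted by Benjamini-Hochberg over 22626 probe sets. Calls needed an adjusted p under 0.05 and a fold over 1.5. The number of arrays, 3 per group, limits the precision. The labels do not say whether replicates came from separate isolations, so p-values measure the spread between these cultures. Values on every array are given for up to 3 members of each role with the largest mean change and for members called between TF groups. Of other lists, up to 4 called genes per direction are named, and Npc2, Gusb and Tfeb among others were named after their values were seen. The fit was tested on simulated data. Alternatives were other scalings, thresholds, filters, probe set choices and variance settings, a replicate block and each array left out in turn.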

Additional observations from a re-analysis of the deposited data

Results flagged for a closer look

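The results below are differences between TF groups in their change against the same negative control, each tested as a contrast of 2 TF groups with limma (n = 3 arrays per group). Ppt1 had log2 changes of 1.24 between TF groups 3 and 2 and of 1.12 between TF groups 3 and 1, both also called with its second probe set. Lipa had 0.79 between TF groups 2 and 1 and -1.0 between TF groups 3 and 2, also called with its second probe set. Ctsh had -0.77 between TF groups 3 and 2 and -0.60 between TF groups 3 and 1. Smpd1 had -0.76 between TF groups 3 and 1. Gla had 0.60 between TF groups 2 and 1, and its second probe set did not give a call. Ctsh and Smpd1 were each measured by 1 probe set.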

How the results depend on the processing

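Scaling to the poly-A spikes changed most: 4, 11 and 5 members were called higher in TF groups 1, 2 and 3, and 1, 0 and 1 lower. Of all genes, 2.74%, 4.14% and 3.53% were then called higher and 55.3%, 44.4% and 48.4% lower. On that scale 18, 10 and 12 of the 47 members had a change below 0, among them Lamp1, Lamp2, Ctsl, Gusb, Idua, Sgsh, Npc2 and Atp6v1g1 in all 3 TF groups. Of the members described array by array, Npc1 (-0.06), Mcoln1 (-0.12), Gla (-0.20) and Atp6ap1 (-0.14) in TF group 1, Galns (0.00) in TF group 2 and Smpd1 (-0.43) and Psap (-0.02) in TF group 3 turned from above to below 0, beside Npc2. A fold threshold of 2 left 24, 27 and 23 members called higher, against 7.42%, 8.03% and 7.53% of all genes. The second brightest probe set, which exists for 28 members, gave 20, 20 and 20, against 13.9%, 13.8% and 14.2% of the 4956 genes that have one. Ids then had -0.06, -0.21 and -0.09.

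The median change of members minus that of all genes was 0.93, 0.98 and 0.93. It was 1.07 and 1.01 in TF groups 2 and 3 with quantile normalization. In TF group 1 it was 0.87 with an offset of 50 before log2, 0.84 with the mean of all probe sets of a gene and 0.85 with the second brightest probe set, which gave 1.05 in TF group 2. Leaving out 1 array at a time gave 0.89 to 0.95 in TF group 1, the lowest without negative control replicate 1.

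Between TF groups 2 and 1, 2 members were called, and 1 with the spike scaling, the offset, the mean of all probe sets, the second brightest probe set or scaling to mitochondrial ATP synthase genes, which was chosen after seeing the data. Leaving out 1 array at a time gave 1 to 2 there. Between TF groups 3 and 1, where 3 were called, the spike scaling and the second brightest probe set each left 1. With no fold threshold 5, 9 and 12 were called between TF groups 2 and 1, 3 and 2, and 3 and 1, and with a fold over 2 0, 1 and 1. Over all arrays left out in turn, 992 of 996 values of named members kept their direction and call, and 4 kept their direction only.

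With a replicate block, 45, 44 and 40 members were called higher, against 14.8%, 15.1% and 14.5% of all genes, and all 95 results tested kept their call. Same-numbered arrays did not deviate together (r from -0.02 to 0.05 over 18 pairs, 0 of them over 0.1). For 6 of 12 arrays, the mean correlation of deviations with the other groups was highest for their own number, out of 3 numbers. The cause of the changes above was not tested.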
